A study of Mus musculus with 18 samples.

Results

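The FOXO forkhead transcription factors and 4 genes known as their targets or partners in keeping cells at rest were followed across 3 populations of blood-forming cells. The genes are Foxo1, Foxo3 and Foxo4, the cyclin gene Ccng2, the sestrin genes Sesn1 and Sesn3, and Klf2. They were taken by symbol from the table of normalised expression, which listed all 7 among its 14419 genes. That step went by symbol only, but the 7 genes had been chosen with earlier results of these data known.

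The cells were LT (long-term stem cells), ST (short-term stem cells) and MPP (multipotent progenitors), sorted from bone marrow of adult male C57BL/6 mice. The mice had been given tamoxifen or the corn oil vehicle, for 1 week where MPPs were taken and for 2 weeks where LT or ST cells were. Tamoxifen is a selective estrogen receptor modulator. Each of the 6 groups held 3 libraries, called biological replicates in the series' design text, made from amplified cDNA. The antibodies and gates of the sort are not described in the sources used here. The sources used here do not say whether a library came from a single mouse, so p-values measure the spread between these libraries. MPPs differ from the other cells in population and in duration, which cannot be told apart. In the titles, the 12 libraries of MPPs and LT cells form 1 numbered run, and the 6 of ST cells start again at 1. The sources used here do not say if library preparation or sequencing of ST cells was done separately, and such a step could not be told apart from the population in any comparison of ST cells with LT cells or MPPs. The RNA is from bulk sorted cells, so fewer cells that express a gene and less RNA per cell cannot be told apart either.

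FOXO factors are the nuclear end of the insulin and PI3K pathway. When the kinase AKT is active it phosphorylates them, 14-3-3 proteins bind them, and they are held in the cytoplasm. When AKT is quiet they enter the nucleus and switch on genes of cell cycle arrest, antioxidant defence and autophagy. Mice whose blood cells lack Foxo1, Foxo3 and Foxo4 lose stem cell quiescence and accumulate reactive oxygen species in their stem cells. The activity of these factors is set largely on the protein, which RNA levels do not measure.

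Values are normalised CPM, a library's reads of a gene scaled to a common total, and are given as mean ± SD of 3 libraries. Differences are on the log2(value + 1) scale with their standard error (SE). They were tested with limma in 1 fit of all 18 libraries, with Benjamini-Hochberg adjustment over 14419 genes and a threshold of 0.05. Reads in listed genes numbered 2728800 to 5279821 per library. The mitochondrial ribosomal RNAs took 17.7% to 22.2% of reads in 16 libraries, 24.4% in ST tamoxifen library A and 25.5% in LT tamoxifen library A. The summed level of 12 long-term stem cell markers was 1970 to 2143 in LT oil libraries, against 767 to 1071 in ST and 1147 to 1352 in MPP oil libraries. Gene by gene the order differed. Against LT cells, 10 of the 12 passed as lower in MPPs (median log2 difference -1.62, 14.8% of all genes passing). In ST cells 8 did (-1.12, 28.5%). In MPPs against ST cells 3 passed as higher and 4 as lower (-0.22, 30.7%). The sum of 9 progenitor markers was 3200 to 3635 in MPP oil libraries, 1903 to 2399 in ST and 405 to 625 in LT.

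In oil, Foxo1 and Foxo3 had their lowest levels in ST cells, and Foxo4 stood at about the same level in all 3 populations. Foxo3, the member of the family best known for keeping stem cells at rest, had the highest mean level per kilobase of exon of the 7 genes in each population (55.4 in MPP, 47.2 in LT and 24.7 in ST oil). In ST oil library A, Sesn1 was above it (23.5 against 20.4 per kilobase). Foxo3 read 424, 438 and 396 in MPP oil libraries 1, 2 and 3. It read 373, 344 and 354 in LT oil libraries A, B and C. In the ST oil libraries it read 154, 178 and 228. The 3 populations did not overlap, and ST cells were the lowest. The share of all genes without overlap was not counted for populations in oil. A lack of overlap there describes these libraries only.

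In oil, Foxo3 averaged 419 ± 21.2 (SD, n = 3) in MPPs, 357 ± 14.6 in LT cells and 187 ± 37.7 in ST cells. It was lower in ST than in LT cells by 0.95 ± 0.13 on the log2 scale, a ratio of means of 1.91 in favour of LT cells (limma adjusted p = 2.68e-06). It was higher in MPPs than in ST cells (1.18 ± 0.13, limma adjusted p = 1.28e-07), a ratio of 2.25. MPPs and LT cells are neighbours in this order, and their difference did not pass (0.23 ± 0.13, limma adjusted p = 0.26).

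Foxo1, the family member best known for its part in lymphocyte and metabolic gene control, had a different order, with LT cells at the top. Its values were 45.3, 40.5 and 46.4 in LT oil libraries A, B and C. They were 34.2, 35.1 and 29.2 in MPP oil libraries 1, 2 and 3, and 18.6, 22.04 and 21.5 in ST oil libraries A, B and C. Again no library of 1 population lay within the range of another. ST cells, at 20.7 ± 1.86, were below LT cells, at 44.1 ± 3.13, with a log2 difference of -1.05 ± 0.17 (limma adjusted p = 4.92e-05). MPPs, at 32.8 ± 3.19, were above ST cells by 0.64 ± 0.17 (limma adjusted p = 0.00652). The step from LT cells to MPPs did not pass (-0.42 ± 0.17, limma adjusted p = 0.119).

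Foxo4, the family member encoded on the X chromosome, had no such order. In oil it averaged 13.0 ± 0.321 in LT cells, 12.1 ± 0.467 in ST cells and 12.0 ± 1.60 in MPPs. The ST libraries (11.6 to 12.4) lay just below the LT libraries (12.6 to 13.2), and the MPP libraries (10.4 to 13.6) overlapped both. No pair of populations differed past the threshold (limma adjusted p = 0.841, 0.866 and 0.969). Levels per kilobase of exon, which adjust for gene length, gave an estimate of the mixture of the family. They count every annotated exon of a gene, and which transcripts these cells express was not examined. Of the summed level per kilobase of the 3 genes in oil, Foxo3 made up 88.5% ± 0.535 (SD, n = 3) in MPPs, 84.3% ± 0.585 in LT cells and 80.5% ± 2.98 in ST cells. The Foxo4 share was 11.6% ± 2.20 in ST cells, 6.66% ± 0.381 in LT cells and 5.50% ± 0.657 in MPPs, and the 9.25% of the lowest ST oil library lay above the 6.95% of the highest LT oil library. These shares are descriptions, carry no test and were not corrected for the trend on exon length described below, which differs between the Foxo3 and Foxo4 length classes. The Foxo1 and Foxo4 levels per kilobase, 2.39 and 3.48 in ST oil, were far below the 24.7 of Foxo3.

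Among the associated genes, the sestrins were split. Sestrins are stress-induced proteins that restrain the growth kinase complex mTORC1 through the GATOR complexes. Sesn1, a target of p53 and of FOXO factors, had the second highest mean level per kilobase of the 7 genes in each population in oil (44.3 in MPPs, 24.96 in LT and 23.1 in ST cells) and was highest in MPPs. It read 161, 187 and 181 in MPP oil libraries 1, 2 and 3, and 108, 80.9 and 109 in LT oil libraries A, B and C. In ST oil libraries A, B and C it read 93.6, 76.7 and 106. MPPs stood above both stem cell populations without overlap, and LT and ST cells overlapped. Sesn1 was higher in MPPs than in LT cells (log2 difference 0.83 ± 0.16, limma adjusted p = 0.000359) and than in ST cells (0.94 ± 0.16, 5.62e-05 by limma), while LT and ST cells did not differ past the threshold (-0.11 ± 0.16, limma adjusted p = 0.655).

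Sesn3, a sestrin gene known to be induced by FOXO factors, had the order of Foxo1 rather than that of Sesn1. In oil it averaged 33.0 ± 5.29 in LT cells, 28.4 ± 3.44 in MPPs and 18.6 ± 3.67 in ST cells. LT oil libraries A, B and C read 36.6, 35.4 and 26.9, and the ST libraries 20.6, 14.4 and 20.96, so these groups did not overlap. Sesn3 was lower in ST than in LT cells (-0.79 ± 0.26, limma adjusted p = 0.0211). That call was lost without LT oil library A (0.0845), LT oil library B (0.0751) or ST oil library B (0.114). The difference between MPPs and ST cells did not pass (0.59 ± 0.26, limma adjusted p = 0.0835), nor did that between MPPs and LT cells (-0.20 ± 0.26, 0.698).

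Ccng2 encodes cyclin G2, an unusual cyclin that is tied to cell cycle arrest rather than to progress through the cycle, and is a known FOXO target. LT cells, which had the most Foxo1 and Sesn3, had the least Ccng2. Ccng2 read 42.0, 35.7 and 46.4 in LT oil libraries A, B and C, then 55.8, 57.2 and 49.7 in the ST oil libraries, and 70.4, 67.5 and 69.0 in MPP oil libraries 1, 2 and 3. No population overlapped another, which was not set against all genes. MPPs (69.0 ± 1.47) were above LT cells (41.3 ± 5.38) by 0.73 ± 0.18 on the log2 scale (limma adjusted p = 0.0051), and the 2 intermediate steps did not pass. These steps were 0.39 ± 0.18 from LT to ST cells (limma adjusted p = 0.113) and 0.34 ± 0.18 from ST cells to MPPs (0.154).

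Klf2, a zinc finger factor that keeps lymphocytes at rest and is a FOXO1 target there, was near the limit of detection. MPP oil libraries held 5 to 8 reads each and 21 in all. LT oil libraries held 0 or 1 read and 2 in all, and ST oil libraries 0 to 4 reads and 7 in all. From these read totals the level in MPPs was 11.6 times that in LT cells (exact 95% interval 2.83 to 102, for counting error only), a ratio that rests on the 2 LT reads. The ratio of the mean normalised CPM, which hold 0.5 read more per library, was 7.15. Against ST cells the ratio of read totals was 2.59 (1.06 to 7.20). Each gene of the table reaches a value of 1 in 6 or more libraries. Klf2 reached 1 in every MPP library, in some ST libraries and in no LT library, so its listing rests on the MPPs. In limma Klf2 was higher in MPPs than in LT cells (1.24 ± 0.38, limma adjusted p = 0.0237), which is not independent of that listing. The call was lost when 1 of 5 libraries was left out: MPP oil 1 (0.0812) or 3 (0.0786), or LT oil A (0.0585), B (0.0514) or C (0.0857). Lymphocytes express Klf2 strongly, and 6 of 12 markers of T and NK cells were in the table. Cd3e, Cd3d, Cd3g, Cd2, Ncr1 and Gzma were not among them. The markers found summed to 68.4 to 94.8 in MPP oil libraries, 33.1 to 49.6 in LT and 124 to 150 in ST. Their part in the Klf2 levels was not tested.

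**Figure D1:**
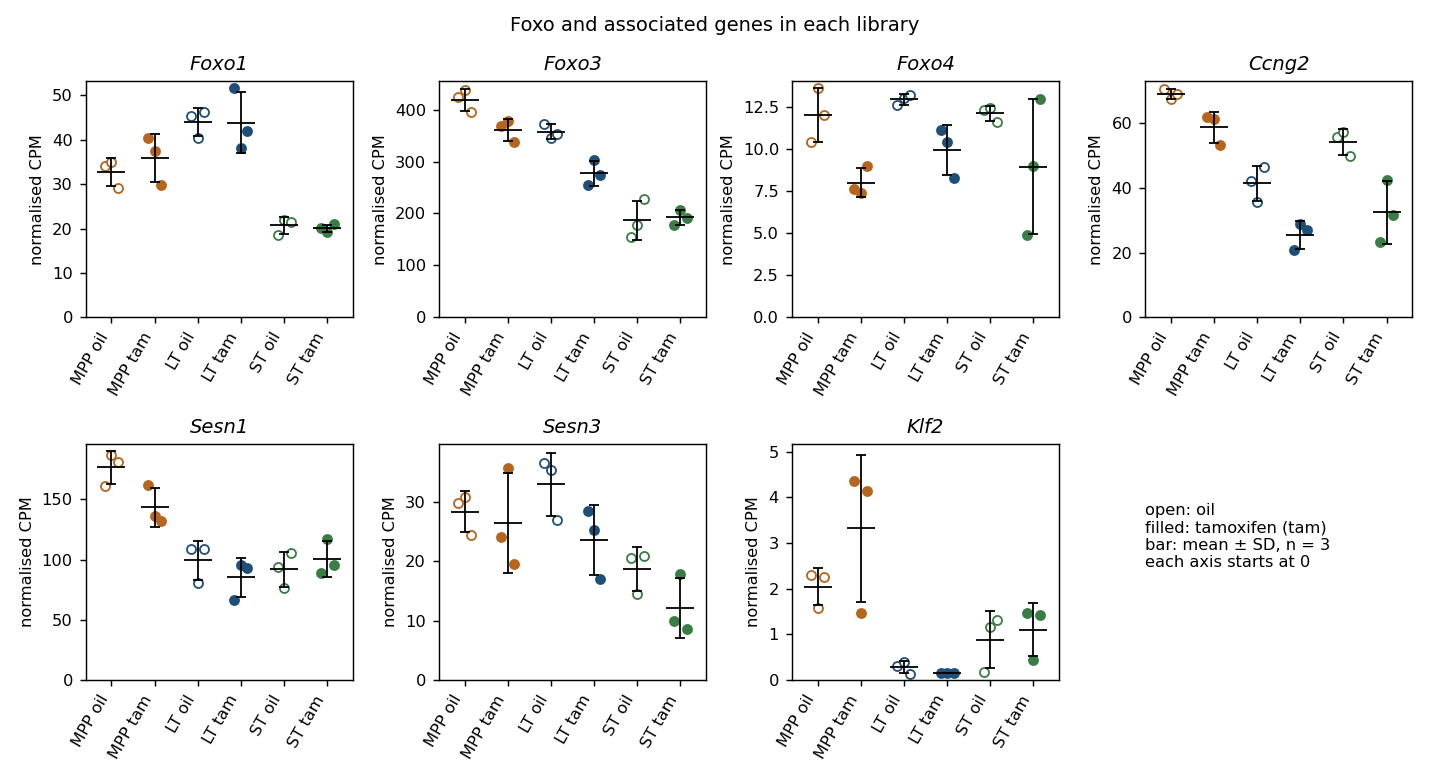
Normalised CPM of each of the 7 genes (vertical axes, each starting at 0) in every library of the 6 groups (horizontal axes). Open circles are oil and filled circles tamoxifen libraries, and bars give mean ± SD of 3. In oil, Foxo3 and Foxo1 are lowest in ST cells, Foxo4 is level, Sesn1 is highest in MPPs at 176, and Ccng2 is lowest in LT cells at 41.3.

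Each of the 3 comparisons between populations in oil thus called 3 of the 7 genes. In ST against LT cells these were Foxo1, Foxo3 and Sesn3, each lower in ST cells, where 28.5% of all genes tested were called in either direction. In MPPs against LT cells they were Ccng2, Sesn1 and Klf2, each higher in MPPs, against 14.8% of all genes. Of these, Klf2 was listed through its level in MPPs, as described above. In MPPs against ST cells they were Foxo1, Foxo3 and Sesn1, each higher in MPPs, against 30.7% of all genes. These comparisons share groups, so their calls are not independent of each other.

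**Figure D2:**
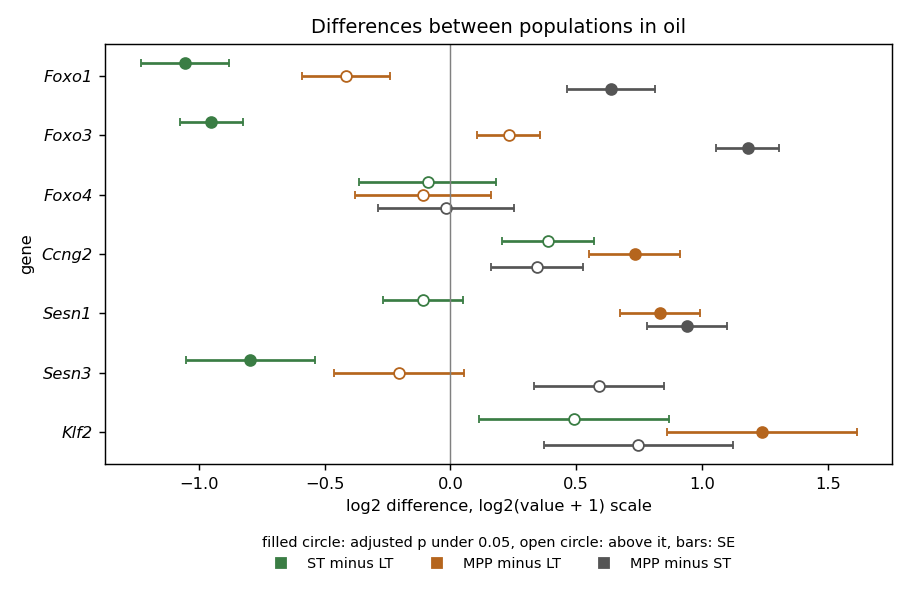
Log2 differences between populations in oil for each of the 7 genes (vertical axis), with ST minus LT in green, MPP minus LT in orange and MPP minus ST in grey. Filled circles passed limma's adjusted threshold, open circles did not, and bars are SE. Foxo1 and Foxo3 lie at -1.05 and -0.95 in ST minus LT, and the Foxo4 points lie near 0.

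The difference between ST cells and the other populations moved with the length of the gene. Genes with under 1 kb of exon had a median log2 difference of 0.45 between ST and LT cells in oil, and genes over 8 kb one of -0.28, with 35.7% of the latter called lower in ST cells. Foxo1 (8.665 kb) and Sesn3 (15.269 kb) are in the longest class and Foxo3 (7.571 kb) in the next, with a median of -0.19. When each library's trend on exon length was removed, a step chosen after the data were seen, Foxo1 stood at -0.81 (limma adjusted p = 0.000835) and Foxo3 at -0.74 (4.66e-05). Both stayed called in ST against LT cells. Foxo4 (3.485 kb), whose class had a median of 0.11, stood at -0.11 with the trend removed and at -0.09 without that step, so its distance from Foxo3 became smaller. Sesn3 fell short at -0.43 (limma adjusted p = 0.206), and Ccng2 passed at 0.51 (0.0335), higher in ST cells. Between MPPs and ST cells, Foxo3 kept its call at 0.99 (limma adjusted p = 7.94e-07), Foxo1 lost it at 0.42 (0.0668), and Klf2 gained it at 1.10 (0.0319). The gained Klf2 call is not independent of its listing through the MPPs. It rests on 21 reads in MPP oil and 7 in ST oil libraries. Between MPPs and LT cells the length classes had medians from -0.07 to 0.02, and the same 3 genes were called.

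**Figure D3:**
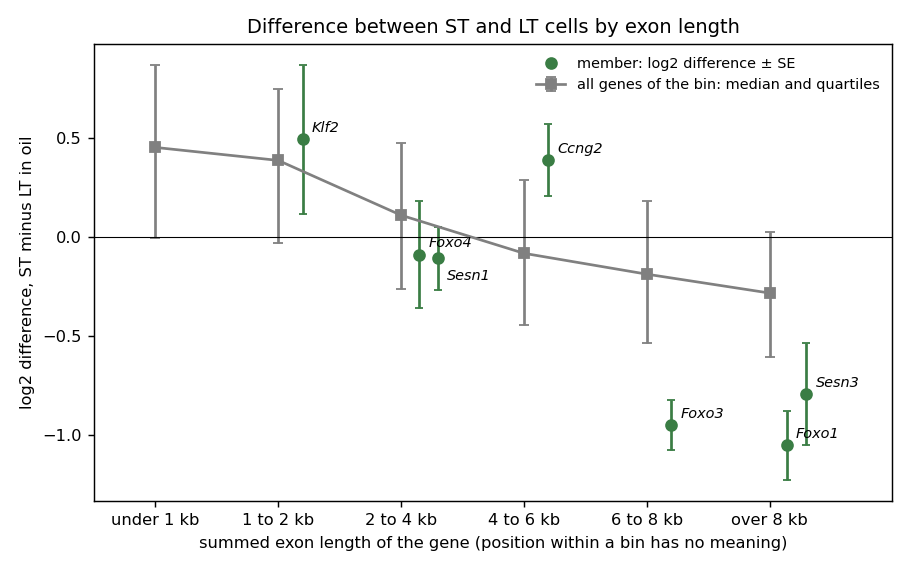
Log2 difference between ST and LT cells in oil (vertical axis) by summed exon length in 6 classes (horizontal axis). Grey squares and bars are the median and quartiles of all genes in a class, and green circles and bars are the 7 genes with SE, drawn within their class. The class medians run from 0.45 to -0.28, and Foxo1, Foxo3 and Sesn3 lie below the lower quartile of theirs.

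With tamoxifen, 1 of the 7 transcripts passed the test in any population, and that was Ccng2 in ST cells. There Ccng2 read 55.8, 57.2 and 49.7 in oil libraries A, B and C. With tamoxifen it read 23.2, 42.4 and 31.5. Each tamoxifen library was below each oil library, and library A was the lowest. Ccng2 fell from 54.2 ± 3.98 to 32.4 ± 9.62 (SD, n = 3 each), a log2 difference of -0.76 ± 0.18 (limma adjusted p = 0.00816, 0.00202 to 0.0545 over the alternatives). It was called in 17 of 18 alternatives, and without ST tamoxifen library A it stood at -0.55 (limma adjusted p = 0.0545). Genes under 1 kb had a median difference of -0.32 with tamoxifen in ST cells, and the 4 to 6 kb class of Ccng2 (5.458 kb) one of 0.07. With the length trend removed Ccng2 stood at -0.81 (limma adjusted p = 0.00499).

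The same transcript read 42.0, 35.7 and 46.4 in LT oil libraries and 20.7, 28.7 and 26.9 in LT tamoxifen libraries A, B and C. These groups did not overlap either, with means of 41.3 ± 5.38 and 25.4 ± 4.21. The log2 difference was -0.69 ± 0.18 and did not pass (limma adjusted p = 0.081, 0.0292 to 0.351 over the alternatives). It passed without LT tamoxifen library B (0.0405) and with DESeq2 (0.0292), and stood at -0.55 without LT tamoxifen library A (0.194). In MPPs, Ccng2 read 70.4, 67.5 and 69.0 in oil and 61.8, 61.1 and 53.2 with tamoxifen, a log2 difference of -0.23 ± 0.18 (limma adjusted p = 0.957). The groups did not overlap. The effects in ST and LT cells differed by -0.08 ± 0.26 (limma adjusted p = 0.935), and those in ST cells and MPPs by -0.53 ± 0.26 (0.41). No difference between populations in the response of Ccng2 was thus detected, although it passed in 1 population only.

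Ccng2 is known as a gene that estrogen represses in breast cancer cells. The 250 bases before its transcription start are shown because it is the only one of the 7 genes called with tamoxifen. The sequence is from RefSeq in GRCm38.p6, chr5:93267323-93267572 on the plus strand, 5′ to 3′, all in lower case because neither motif searched occurs in it.

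Ccng2: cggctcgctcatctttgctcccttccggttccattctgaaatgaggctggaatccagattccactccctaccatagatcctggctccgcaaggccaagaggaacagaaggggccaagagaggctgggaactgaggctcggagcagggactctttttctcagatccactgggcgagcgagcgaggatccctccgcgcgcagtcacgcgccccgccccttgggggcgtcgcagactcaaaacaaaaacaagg

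Windows from 250 bases before to 50 bases after a start were searched for 2 motifs. The FOXO core was searched as GTAAACA and, for the other strand, as TGTTTAC. The estrogen response element half-site was searched as AGGTCA, which on the other strand reads TGACCT. Of 32851 such windows, 3.65% hold the FOXO core and 16.3% the half-site. Windows were found for 6 of the 7 genes, and Foxo4 was not matched. The half-site occurs in 0 of their 7 windows, and the FOXO core in 1, at one of the 2 Sesn1 starts. That stretch is shown because it is the only match among these genes. It lies at chr10:41810586-41810612 (GRCm38.p6, plus strand), after the start, with the core in capitals.

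Sesn1: aaccttctacTGTTTACcagccttttg

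A match describes the letters only, and their absence says nothing of sites elsewhere.

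The FOXO genes themselves were not called with tamoxifen in any population. Foxo1 means moved little: 32.8 in oil and 35.9 with tamoxifen in MPPs, 44.1 and 43.9 in LT cells, and 20.7 and 20.1 in ST cells. The largest of these differences was 0.12 ± 0.17, in MPPs (limma adjusted p = 0.994). Foxo3 in LT cells read 373, 344 and 354 in oil libraries A, B and C and 256, 302 and 273 with tamoxifen, without overlap. Its means were 357 ± 14.6 and 277 ± 23.6, a log2 difference of -0.37 ± 0.13 and a limma adjusted p of 0.165 (0.054 to 0.439 over the alternatives). In MPPs the means were 419 ± 21.2 and 361 ± 21.1 and the groups did not overlap (-0.22 ± 0.13, limma adjusted p = 0.931). In ST cells they were 187 ± 37.7 and 192 ± 14.5, with overlap (0.06 ± 0.13, 0.807 by limma). The difference between the ST and LT effects on Foxo3 was 0.43 ± 0.18 (limma adjusted p = 0.299).

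Foxo4 means were lower with tamoxifen in each population by a like amount, and none of these differences passed. They were -0.53 ± 0.27 in MPPs (12.0 ± 1.60 to 7.99 ± 0.869, limma adjusted p = 0.897), -0.36 ± 0.27 in LT cells (13.0 ± 0.321 to 9.95 ± 1.498, 0.603) and -0.48 ± 0.27 in ST cells (12.1 ± 0.467 to 8.96 ± 4.03, 0.272). The MPP groups did not overlap, and neither did the LT groups. In ST cells the tamoxifen libraries A, B and C ran from 4.91 to 9.00 and 13.0, and library C was above all 3 oil libraries. Without library A the ST difference was -0.15.

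The sestrins were not called with tamoxifen. Sesn3 read 20.6, 14.4 and 20.96 in ST oil libraries and 9.96, 17.9 and 8.60 in ST tamoxifen libraries A, B and C. Library B of the tamoxifen group lay within the oil range. The log2 difference was -0.63 ± 0.26 (limma adjusted p = 0.123), and it passed without ST tamoxifen library B (-0.92, limma adjusted p = 0.039). Sesn3 stood at -0.49 ± 0.26 in LT cells (limma adjusted p = 0.423) and at -0.13 ± 0.26 in MPPs (0.994). For Sesn1 the differences were -0.30 ± 0.16 in MPPs (limma adjusted p = 0.909), -0.22 ± 0.16 in LT cells (0.578) and 0.13 ± 0.16 in ST cells (0.662), each with overlapping groups.

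Klf2 with tamoxifen had 41 reads in MPPs, with 6 to 21 per library, against 21 in oil, a ratio of 1.67 (exact 95% interval 0.964 to 2.97). In ST cells it had 11 against 7 reads, a ratio of 1.33 (0.472 to 4.06). In LT cells it had 0 reads with tamoxifen and 2 in oil, both at or under 3 reads over the group (0.294 and 0.248 normalised CPM), so no fold is given. No Klf2 difference with tamoxifen was detectable at this depth.

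**Figure D4:**
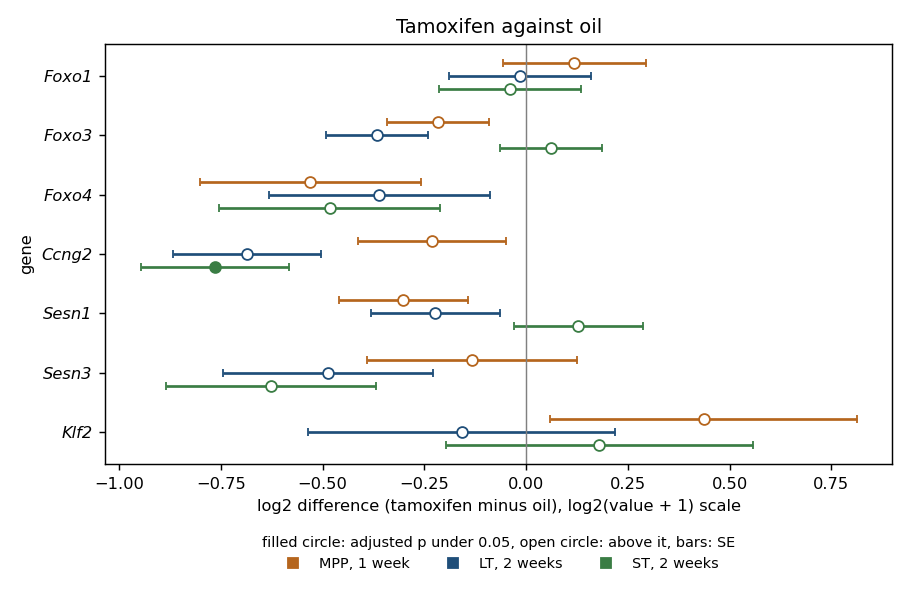
Log2 differences of tamoxifen minus oil for each of the 7 genes (vertical axis) in MPPs after 1 week (orange) and in LT (blue) and ST cells (green) after 2 weeks. Circles are filled where limma's adjusted p passed the threshold, and bars are SE. Ccng2 in ST cells, at -0.76, is the only filled circle, and Ccng2 in LT cells lies beside it at -0.69.

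Counted together, tamoxifen called 0 of the 7 genes in MPPs, where 0.0555% of all genes were called. With edgeR and with DESeq2 the count was also 0. An unadjusted limma p under 0.05 was held by 0 of the 7 in MPPs, beside 819 of all 14419 genes. In LT cells 0 of 7 were called with limma and edgeR and 1, Ccng2, with DESeq2, against 0.416% of all genes in limma. Ccng2 and Foxo3 had an unadjusted limma p under 0.05 there, beside 1952 of all 14419 genes. In ST cells 1 of 7 was called by each of these tools, against 9.61% of all genes in limma. Ccng2 and Sesn3 had an unadjusted limma p under 0.05 in ST cells, beside 3614 of all 14419 genes. The groups did not overlap for 3 of 7 genes in MPPs (14.9% of all genes) and for 3 of 7 in LT cells (18.4%), in both cases Foxo3, Foxo4 and Ccng2, each lower with tamoxifen. In ST cells this held for 1 of 7 (27% of all genes).

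All 7 differences in LT cells were below 0, with a median of -0.36 beside -0.02 for all genes. Of these, Foxo1 stood at -0.015 and changed sign with DESeq2 (0.010) and with the length trend removed (0.0069). The Klf2 difference rests on 0 reads with tamoxifen and 2 in oil. In MPPs 5 of 7 were below 0, with a median of -0.22 beside 0.00 for all genes. In ST cells 4 of 7 were below 0, with a median of -0.04 beside 0.01, and after quantile normalisation 6 of 7 were, since Foxo3 (-0.11) and Sesn1 (-0.0047) changed sign. These medians describe the 7 genes and are not tests.

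Tests of the difference between populations in the tamoxifen effect called 0 of the 7 genes. The count was 0 for ST minus LT cells (0.0555% of all genes called), for ST cells minus MPPs (0.00694%) and for LT cells minus MPPs (0%). Foxo3 in the first of these and Ccng2 in the second had an unadjusted limma p under 0.05, and no gene of the 7 did in the third. Of all 14419 genes, 1860, 1742 and 808 did, in that order. EdgeR and DESeq2 called 0 of the 7 in each.

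Markers of dividing cells rose with tamoxifen in ST cells. All 12 of that list, which holds genes such as Mki67 and Top2a, were in the table and none was at 0 reads in a group. In ST cells their summed level was 1962 to 2441 with oil and 3778 to 4028 with tamoxifen. There 7 of 12 rose past the threshold, beside 9.61% of all genes called in either direction. In LT cells the sum was 1256 to 1643 in oil and 1907, 1990 and 4000 with tamoxifen. There 0 of 12 passed the threshold, beside 0.416% of all genes. An unadjusted limma p under 0.05 was held by 8 of 12, beside 1952 of all 14419 genes. LT tamoxifen library A held the 4000, the lowest Foxo3 and Ccng2 values of its group, and the highest share of mitochondrial ribosomal RNA. In MPPs the sums overlapped (2504 to 3658 in oil and 3017 to 4106 with tamoxifen). There the middle library was lower with tamoxifen (3379 against 3628), and 0 of 12 passed. All 12 log2 differences were above 0 in each population. Their medians were 0.78 in ST cells, 0.55 in LT cells and 0.24 in MPPs.

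Progenitor markers also moved, and Ccng2 was itself highest in MPPs and lowest in LT cells in oil. The summed level of the 9 progenitor markers in LT cells was 405 to 625 in oil and 181 to 310 with tamoxifen. There 3 of 9 fell past the threshold, beside 0.416% of all genes called, and 8 of 9 were below 0. The median log2 difference was -1.25. In ST cells the sum was 1903 to 2399 in oil and 2746 to 3125 with tamoxifen. Yet 6 of 9 were below 0 there, with a median of -0.35, and 1 fell past the threshold, beside 9.61% of all genes. In MPPs the sum was 3200 to 3635 in oil and 2388 to 4724 with tamoxifen, with 0 of 9 past the threshold. For the 12 long-term stem cell markers, LT tamoxifen libraries had sums of 1658 to 1834, below the oil range of 1970 to 2143, with 0 of 12 past the threshold. The part of cell division, of the mix of cells and of these libraries' RNA quality in the Ccng2 difference was not tested.

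The rest of the pathway was read from lists of its genes. Tamoxifen called no pathway gene outside the 7 in MPPs or LT cells, and all those below are from ST cells. There 9.61% of all genes were called, and the counts for the kinases, the cell cycle targets and the mTORC1 branch are near that share. Among 22 upstream kinases and phosphatases in the table, 2 rose and 0 fell. They were Pik3r1, the regulatory p85 subunit of PI3K (179 ± 30.1 to 264 ± 13.2, log2 difference 0.57 ± 0.12, limma adjusted p = 0.00336), and Pik3cd, its leukocyte catalytic subunit p110 delta (60.5 ± 3.95 to 92.5 ± 11.1, 0.60 ± 0.16, 0.0144 by limma). The Pik3cd call was lost under quantile normalisation (0.0501), without ST oil library B (0.0501) or without ST tamoxifen library C (0.0822).

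Among 18 cofactors and modifiers of FOXO proteins, 5 rose and 1 fell, beside 9.61% of all genes called. The 3 with the smallest p encode 14-3-3 proteins, the partners that hold phosphorylated FOXO in the cytoplasm. Ywhah went from 206 ± 35.6 to 316 ± 14.9 (0.63 ± 0.13, limma adjusted p = 0.0041). Ywhae went from 679 ± 131 to 1001 ± 132 (0.57 ± 0.12, 0.0047 by limma). Ywhaz went from 756 ± 104 to 1053 ± 14.8 (0.49 ± 0.13, 0.0143 by limma), and lost its call without ST oil library A (0.0997), without ST tamoxifen library C (0.0518) or without trend and robust moderation (0.0657).

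Among 14 further FOXO targets of the cell cycle, 2 rose and 0 fell, beside 9.61% of all genes called. Both encode D cyclins, which FOXO factors are known to repress. Ccnd1 rose from 20.3 ± 0.923 to 37.5 ± 1.39 (0.85 ± 0.21, limma adjusted p = 0.0109). Ccnd2 rose from 154 ± 17.6 to 214 ± 9.00 (0.48 ± 0.13, 0.0165 by limma). The Ccnd2 call was lost under quantile normalisation (0.31, limma adjusted p = 0.139), without trend and robust moderation (0.062), and without ST oil library A (0.0694) or B (0.0728) or ST tamoxifen library B (0.0628).

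Among 23 genes of the GATOR and mTORC1 branch on which sestrins act, 2 rose and 1 fell, beside 9.61% of all genes called. Rptor, the scaffold of mTORC1, fell from 70.9 ± 5.37 to 47.7 ± 3.18 (-0.56 ± 0.14, limma adjusted p = 0.0096), a call lost without ST tamoxifen library C (0.0518). Prkaa1, a catalytic subunit of the energy sensor AMPK, was at 41.6 ± 6.80 and 58.7 ± 2.15 (0.50 ± 0.15, limma adjusted p = 0.0393). It was called in 8 of 18 alternatives, with an adjusted p of 0.0558 to 0.2 without ST oil library A or C or any 1 ST tamoxifen library. Mtor, the kinase of the complex, was at 69.6 ± 6.89 and 91.0 ± 5.49 (0.39 ± 0.12, limma adjusted p = 0.0433). It was called in 6 of 18 alternatives, with an adjusted p of 0.0769 to 0.131 without ST oil library B or C or any 1 ST tamoxifen library.

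In ST cells, 3614 of all 14419 genes had an unadjusted limma p under 0.05. No gene passed in ST cells among 10 FOXO targets of oxidative stress defence (1 at an unadjusted limma p under 0.05), 13 of autophagy (1), 5 of cell death (0), 12 of lymphocyte homing and survival (1), or 8 near relatives of the 7 genes (0). In LT cells, where none of these genes passed, the median log2 difference was -0.32 for the cell cycle targets, -0.03 for oxidative stress, -0.33 for autophagy, -0.02 for cell death and -0.41 for lymphocyte homing and survival, beside -0.02 for all genes. For none of the 10 pathway genes named did the effect differ between populations past the threshold (lowest limma adjusted p = 0.0697, for Ywhah).

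In oil, the upstream kinases and phosphatases had their low point in ST cells, as Foxo1 and Foxo3 did. Of 22, 11 were lower and 0 higher in ST than in LT cells, where 28.5% of all genes were called. In MPPs against ST cells, where 30.7% of all genes were called, 14 were higher and 0 lower. Of 8 near relatives of the 7 genes, 6 were lower and 1 higher in ST than in LT cells, beside the same 28.5%. The median log2 differences in ST against LT cells were -0.50 and -0.70, beside 0.01 for all genes. Of 12 FOXO targets of lymphocyte homing and survival, 7 were higher and 0 lower in MPPs than in ST cells, beside the same 30.7%. Most other lists held calls both ways in ST against LT cells, beside the same 28.5%. Of 18 cofactors 4 were higher and 7 lower, and of 23 genes of the mTORC1 branch 2 and 5. The FOXO targets had 2 and 3 of 10 for oxidative stress, 1 and 2 of 13 for autophagy, and 2 and 3 of 12 for lymphocyte homing. They had 0 and 4 of 14 for the cell cycle, and 0 and 1 of 5 for cell death. The trend on exon length described above was not removed from these counts.

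The genes whose pattern over the 18 libraries was most like that of each of the 7 were found by Pearson's r of log2(value + 1), among genes above the median mean level. The points share populations, treatments and library depth, so r describes the pattern only. Foxo3 was closest to Sft2d2 (0.977), Cmtm6 (0.962) and Spata13 (0.956). The means of Sft2d2 in oil were 220.4 in MPPs, 196 in LT cells and 92.5 in ST cells, the order of Foxo3. Foxo1 was closest to Eif2c2 (0.9496), Rbms2 (0.949) and Iqsec1 (0.946). Ccng2 was closest to Paqr5 (0.958), Myo1g (0.915) and Il10rb (0.905).

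Paqr5, a membrane progestin receptor gene, averaged 23.3 in ST oil and 10.7 in ST tamoxifen, and 17.8 and 8.74 in LT cells. Sesn1 was closest to Marcksl1 (0.946), Eltd1 (0.939) and Casp2 (0.938), and Sesn3 to Rcbtb1 (0.911), Ulk1 (0.898) and Csnk1g1 (0.875). Ulk1, the kinase that starts autophagy, had means in oil of 126 in LT cells, 111 in MPPs and 73.0 in ST cells. Foxo4 had no gene above 0.820 (Csnk1e, then Sike1 at 0.793 and Tmem87b at 0.786). Klf2 was closest to Samsn1 (0.895), Egln3 (0.884) and Sh3bgrl3 (0.878), on few reads. Foxo4 and Klf2 were not above the median mean level, so they could not be listed for another gene. None of the other members was among the 3 closest genes of another.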

How the data were processed

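The authors deposited 1 table of normalised expression for 14419 genes in 18 libraries. The submitters' processing notes name the build NCBIM37 and the tools RSEM 1.17, limma, cutadapt and Picard. Of scaling, annotation and strand setting the sources used here say nothing. The deposited values were read as a normalised signal of CPM form: a read number plus 0.5, scaled by a constant for each library. With a tolerance of 0.001 read, 100% came out whole, and counting intervals and floors (3 reads over a group) rest on that. Amplified cDNA reads are not independent molecules, so these cover counting error only. Each listed gene reaches 1 in 6 or more libraries, so low genes had been left out.

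Values were tested with limma 3.58.1 (R 4.3.3) on log2(value + 1), all 18 libraries in 1 fit with 6 group means and 12 residual degrees of freedom, trend and robust moderation, and Benjamini-Hochberg adjustment over 14419 genes. This scale understates the change of low genes. The fit was tested on simulated data, where a larger share of its calls than the nominal fell on unchanged genes, so calls near the threshold are less certain than their adjusted p says. A filter at 1 in at least 3 libraries removed 0 genes. Alternatives were the pseudocount, a stricter filter, quantile normalisation, only the groups compared, no trend and robust settings, library weights, a replicate block, and each library left out. Added after the data were seen were edgeR 4.0.16 on the recovered reads, which calls 5, 58 and 1175 genes with tamoxifen in MPPs, LT and ST cells where limma calls 8, 60 and 1386, DESeq2 1.42.0, a fit without LT tamoxifen library A, and removal of the length trend. Exon lengths came from GENCODE M21 by gene identifier, for 13693 genes (95.0%). That annotation is on GRCm38, not the authors' build.

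The 7 genes, the pathway lists and the marker lists were chosen with earlier results of these data known. Besides the 7, the text names from each pathway list the 3 genes of smallest p past the threshold in each tamoxifen comparison, and for each of the 7 the 3 genes of highest r.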

Additional observations from a re-analysis of the deposited data

How the results depend on the processing

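Of 63 comparisons of the 7 genes, 10 were called, 6 of these under every alternative run, and no called value changed direction. The 6 were Foxo1 and Foxo3 in ST against LT cells, Ccng2 and Sesn1 in MPPs against LT cells, and Foxo3 and Sesn1 in MPPs against ST cells. Of 1223 alternative values, 11 lost and 9 gained a call, and 37 of 1035 uncalled ones changed sign. In MPPs against LT cells, testing only the groups compared called 5 of the 7 genes (3 in the reported fit), adding Foxo1 (limma adjusted p = 0.0344) and Foxo3 (0.0249). Tamoxifen in LT cells called 1 with DESeq2 and 0 to 1 when a library was left out, and in ST cells 0 to 2 when a library was left out. Oil and tamoxifen libraries of 1 number or letter had deviations correlated at -0.10 to 0.24 over 7210 genes, and were not all over 0.1 in any population. In MPPs each library correlated best with its own number. Between LT and ST cells each letter correlated best with itself in 6 of 6 cases (0.08 to 0.16 in oil, 0.11 to 0.15 with tamoxifen), a hint from the data that letters are shared. With the replicate block (8 residual degrees of freedom) no call among the 7 genes changed: Ccng2 with tamoxifen stood at -0.76 in ST cells (limma adjusted p = 0.0094) and at -0.69 in LT cells (0.0691), and 120 genes were called in LT cells in place of 60.

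The counts over all genes moved more. With tamoxifen they ran from 0 to 67 in MPPs (8 reported), from 3 to 330 in LT cells (60) and from 654 to 2121 in ST cells (1386). The ST count was 654 without oil library A, 904 without oil B, 855 without tamoxifen B and 669 without tamoxifen C. The LT count was 20 without oil A, 33 without oil B, 9 without oil C and 330 without tamoxifen B. The MPP count was 1, 0 and 40 without oil libraries 1, 2 and 3, and 0 and 3 without tamoxifen 2 and 3. The differences of effects ran from 0 to 125, 0 to 164 and 0 to 11, and MPPs against LT cells from 1467 to 3568 (2130). The causes were not tested. Few reads limit Klf2 (0 to 21 per library) in each comparison.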
